A study of Mus musculus with 2 samples.

Results

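The venous stalk-like endothelial cells (ECs) of the LLC tumours were 15% of the 3857 ECs of both libraries. They were the cells with the highest mean deposited value of 6 genes, Selp, Mctp1, Vcan, Lifr, Ehd3 and Ctnnal1, over the pooled cells. Of these members, 242 came from the PBS-treated tumour, or 9.61% of its 2517 ECs (exact Clopper-Pearson 95% interval 8.49 to 10.8), and 337 from the cGAMP-treated tumour, or 25.1% of its 1340 ECs (22.8 to 27.6). The cells were chosen by measured values of these same libraries, so the levels of the 6 genes, and of every gene that goes along with them, describe the choice and were not tested.

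LLC, a mouse line of Lewis lung carcinoma that comes from C57BL/6, had been implanted under the skin of C57BL/6 mice that the labels call adult, and that the methods give as males of 8 to 9 weeks. 1 tumour then received PBS by intratumoural (i.t.) injection, and 1 received 14 µg of cGAMP, a cyclic dinucleotide that activates STING, in 70 µl of PBS. Live CD31+ ECs were sorted 24 h later according to the methods, whereas a supplementary legend gives 6 h, and were profiled by droplet-based scRNA-seq. Each library came from 1 mouse, the labels name no engineered allele in either group, and clusters without Pecam1 had been removed from the data, so that the effect of the injection cannot be told apart from a difference between mice or libraries.

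Venous ECs, above all those of postcapillary venules, are the site at which leucocytes leave the blood. They store P-selectin in Weibel-Palade bodies, display further adhesion molecules and carry chemokines across to their luminal side through the atypical receptor ACKR1. In sprouting vessels, stalk cells follow the leading tip cells and form the lumen, while tip cells carry genes such as Esm1, Pgf and Cxcr4. STING is the sensor of cyclic dinucleotides in the cytoplasm, and its activation leads to type I interferon, which in turn induces a large set of genes through response elements in their promoters.

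Unique molecular identifiers (UMIs) were recovered from the deposited values and summed over the cells of a group, and levels are given in CPM, which scales a gene to 1000000 UMIs of that group. PBS members held 6414155 UMIs and cGAMP members 15253834, with medians of 23076 and 41197 UMIs per cell, and the other ECs had medians of 30912 and 41154. The median mitochondrial share of a member was 5.03% in the PBS and 2.93% in the cGAMP library, against 4.43% and 2.84% in the other ECs. The libraries shared 1 cell barcode. With 1 library per condition there is no replicate, so each interval below is exact, at 95%, and covers counting error only, and no p-value was computed.

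The score that chose the members had no gap at its limit. It was 0.652 in the last member and 0.651 in the next cell, and 114 cells lay within 0.05 of the limit. The median score was 0.917 in members and 0.0777 in the other ECs. All 6 genes were found in 209 members, 5 in 205 and 4 in 122, while 968 of the other ECs had none of the 6. The members were therefore the upper end of a continuous range. The excess in the cGAMP library was 15.5 percentage points, and it was 10.7 points when Ehd3 was left out of the score and 12.2 when the score was taken from cells thinned to 5000 UMIs.

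**Figure D1:**
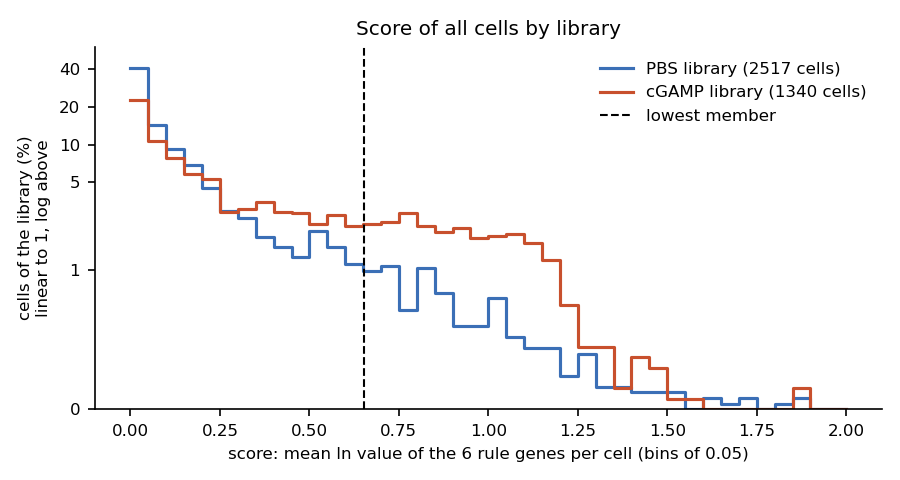
Share of each library's ECs (%, linear to 1 and logarithmic above) in bins of 0.05 of the score, the mean ln value of the 6 rule genes per cell; the dashed line marks the lowest member at 0.652. To the right of the line lie 9.61% of the PBS and 25.1% of the cGAMP library, with no gap at the limit.

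Selp codes for P-selectin, and it stood at 1269 CPM in PBS members and 1103 CPM in cGAMP members, against 91.8 and 104 CPM in the other ECs. Lifr codes for the receptor of leukaemia inhibitory factor, at 94.0 and 83.1 CPM in members against 9.58 and 18.6. Vcan codes for the matrix proteoglycan versican, at 128 and 92.9 CPM against 6.39 and 8.44. Ehd3, which codes for an endosomal ATPase, was the rule gene that differed most upwards, with 149 CPM in PBS and 379 CPM in cGAMP members, and it also went from 10.4 to 69.5 CPM in the other ECs. Ctnnal1, which codes for an alpha-catenin-like protein, went the opposite way, from 117 to 40.8 CPM in members and from 6.60 to 3.85 CPM in the other ECs. Mctp1, a gene for a calcium-binding C2 domain protein, was at 82.5 and 83.6 CPM in members.

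Ackr1 was named as a marker of these cells but took no part in the score, and it marked them in both libraries. This gene lies on the minus strand at chr1:173331886-173333750 of GRCm38. It stood at 435 CPM in PBS members and 9.90 CPM in the other PBS ECs, and at 608 CPM in cGAMP members and 32.4 CPM in the other cGAMP ECs. The log2 ratios of members over other ECs were 5.46 (interval 5.35 to 5.57) and 4.23 (4.15 to 4.31). After thinning to 5000 UMIs, 66.9% of PBS members and 78.6% of cGAMP members had an Ackr1 UMI, against 2.94% and 10.1% of the other ECs. Without thinning these shares were 83.9%, 95.8%, 9.54% and 25.02%. Single cells varied widely, with medians of 347 and 447 CPM and highest values of 3778 and 4021 CPM in members.

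The level of Ackr1 fell off with the score rather than at the limit of the group. Ranked by score in blocks of 193 cells, PBS ECs had 707, 349 and 306 CPM in the 3 blocks of members, and then 129, 48.4 and 26.4 CPM in the next 3 blocks. In the cGAMP library the same blocks had 1032, 511 and 348 CPM and then 162, 91.2 and 56.5 CPM. Among the ECs with none of the 6 rule genes, Ackr1 stood at 0.970 and 1.54 CPM. Sele followed the same course, from 190 CPM in the top block of PBS ECs to 0.277 CPM in the ECs with a score of 0. The genes of tip and arterial ECs ran the other way. Esm1 was between 8.34 and 17.4 CPM in the 3 PBS blocks of members and at 561 CPM in the PBS ECs with a score of 0, and Gja4 had no UMI in PBS members.

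**Figure D2:**
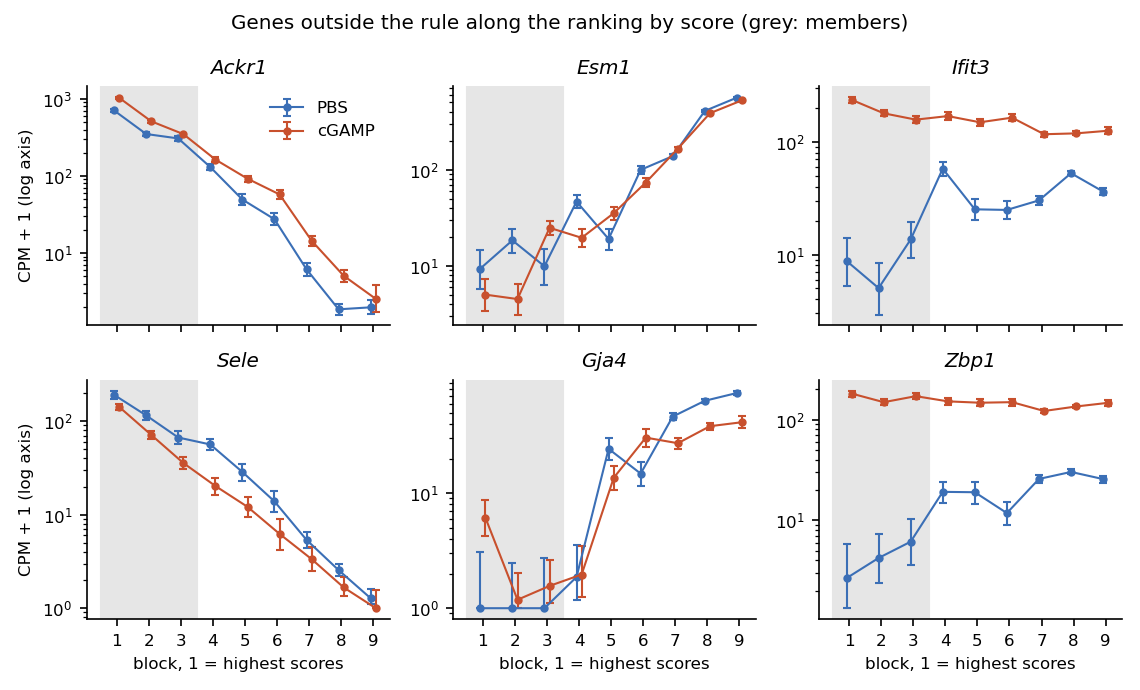
CPM plus 1 (log axis) of 6 genes outside the rule in 9 blocks of cells ranked by score, for the PBS and cGAMP libraries with exact Poisson 95% intervals; blocks 1 to 3, on grey, are the members and block 9 holds cells with a score of 0. Ackr1 and Sele fall along the ranking in both libraries, Esm1 and Gja4 climb, and Ifit3 and Zbp1 are lower in PBS members than in the next block of other PBS ECs. In the cGAMP library only the last block of members has less Ifit3 than the next block of other ECs.

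The label of a venous cell was then set against lists of identity genes. Of 15 venous genes with at least 10 CPM in both libraries (rule genes left out), 7 were at least 2-fold higher in members in both libraries, none was 2-fold lower, and the median log2 ratio was 1.07, against -0.02 to -0.01 for all genes. Over all 7726 genes compared, 2.39% were at least 2-fold higher in members in both libraries and 2.41% at least 2-fold lower. Nr2f2, which codes for the venous transcription factor COUP-TFII, stood at 181 and 156 CPM in members against 60.3 and 58.7 CPM in the other ECs, and its log2 ratios were 1.58 (1.49 to 1.67) and 1.41 (1.33 to 1.49). Lrg1, a leucine-rich glycoprotein made by venular ECs, had log2 ratios of 2.33 (2.31 to 2.36) and 1.54 (1.52 to 1.56). Besides these and Ackr1, the 7 held Vwf, Vcam1, Il1r1 and Flrt2. These ratios are over all other ECs pooled. Other cGAMP ECs with the highest scores of a matrix-rich list (given below) had 155 CPM of Nr2f2 and 255 CPM of Vwf. Members of that library had 156 and 224 CPM. In the PBS library such other ECs had 96.2 and 377 CPM, and members 181 and 613 CPM. Ackr1, Lrg1, Vcam1, Il1r1 and Flrt2 were higher in members than in these cells in both libraries. Of 15 pan-endothelial genes none was 2-fold higher and 1, the tight junction gene Cldn5, was 2-fold lower (91.5 and 161 CPM in members against 692 and 663 CPM), with a median of -0.06.

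Genes of the tip and arterial types were mostly lower in members. Of 16 tip genes, 11 were at least 2-fold lower in members in both libraries, none was higher, and the median log2 ratio was -3.66. Of 12 arterial genes, 6 were 2-fold lower and 3 were 2-fold higher, with a median of -1.37. The 3 that were higher, Fbln2, Fbln5 and Mgp, are genes of matrix proteins, whereas Gja4, Efnb2, Sema3g, Hey1, Cxcl12 and Dll4 were those that were lower. Of 8 genes of fatty acid uptake, which mark capillary ECs, 1 was 2-fold higher and 2 were 2-fold lower in both libraries, and 5 were above 0, with a median of 0.53. The lipase anchor Gpihbp1 was lower (111 and 107 CPM in members against 1298 and 1234 CPM in the other ECs), as was Rgcc, while the carbonic anhydrase gene Car4 was higher (90.9 and 333 CPM against 29.7 and 87.8). In the PBS library by itself 4 of the 8 were 2-fold higher and 2 lower, among them Fabp4 with 4484 CPM against 1312 CPM. The tip and most arterial genes are therefore low in these cells.

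Across all genes outside the rule, 185 were at least 2-fold higher and 186 at least 2-fold lower in members of both libraries. The PBS library by itself gave 445 higher and 366 lower genes, and the cGAMP library 223 and 241. The shared 185 were 41.6% of the higher genes of the PBS library and 83.0% of those of the cGAMP library. The genes with the highest ratios, ranked by the smaller of the libraries' ratios, were Fjx1, Lbp, Sele, Ackr1, Csf3, Eln, Cmah, Cadm3, Bgn and Hdc, and they fall into a few kinds.

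Secreted and adhesive proteins known from inflamed venules were among them. Sele, the gene of E-selectin, stood at 119 CPM in PBS and 78.7 CPM in cGAMP members, against 5.44 and 3.97 CPM in the other ECs, with log2 ratios of 4.46 (4.29 to 4.63) and 4.31 (4.09 to 4.54). It lies on the plus strand at chr1:164048234-164057677, upstream of Selp at chr1:164115264-164150026 of the same strand. Lbp codes for the lipopolysaccharide-binding protein and stood at 106 and 96.9 CPM against 3.70 and 4.80. Csf3, the gene of the neutrophil growth factor G-CSF, went from 38.4 CPM in PBS members to 273 CPM in cGAMP members, and from 1.55 to 14.8 CPM in the other ECs, so it was higher in members in both libraries. In PBS members 5 cells held 40.7% of its UMIs and the median cell had none, against 13.5% and a median of 62.2 CPM in cGAMP members. Hdc codes for the enzyme that makes histamine, and its levels were 155 and 239 CPM in members against 10.8 and 29.3.

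Matrix and surface proteins made up most of the rest. Bgn, the gene of the proteoglycan biglycan, stood at 290 and 186 CPM in members against 26.9 and 21.4 CPM in the other ECs. Eln, the gene of elastin, stood at 89.6 and 20.9 CPM against 6.06 and 1.37. Its ratio held (3.89 and 3.93) while its level differed between the libraries. Both genes were also high in the other ECs with the highest scores of a matrix-rich list, which holds Eln itself. In those cells Eln stood at 64.4 and 21.3 CPM and Bgn at 143 and 153 CPM. Members outside the matrix-rich cells had 11.6 and 9.17 CPM of Eln, so a high Eln level was not particular to the members. Cadm3, a cell adhesion molecule gene, stood at 30.2 and 27.7 CPM against 1.06 and 2.24. Fjx1, the mammalian four-jointed homologue, a gene of a secreted or Golgi protein, had the highest ratio by this ranking, with 62.2 and 120 CPM in members against 1.26 and 3.70 CPM, and log2 ratios of 5.62 (5.31 to 5.95) and 5.02 (4.79 to 5.25). Its level was uneven among members, since 5 cells held 25.6% of its UMIs in PBS members and 15.3% in cGAMP members.

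**Figure D3:**
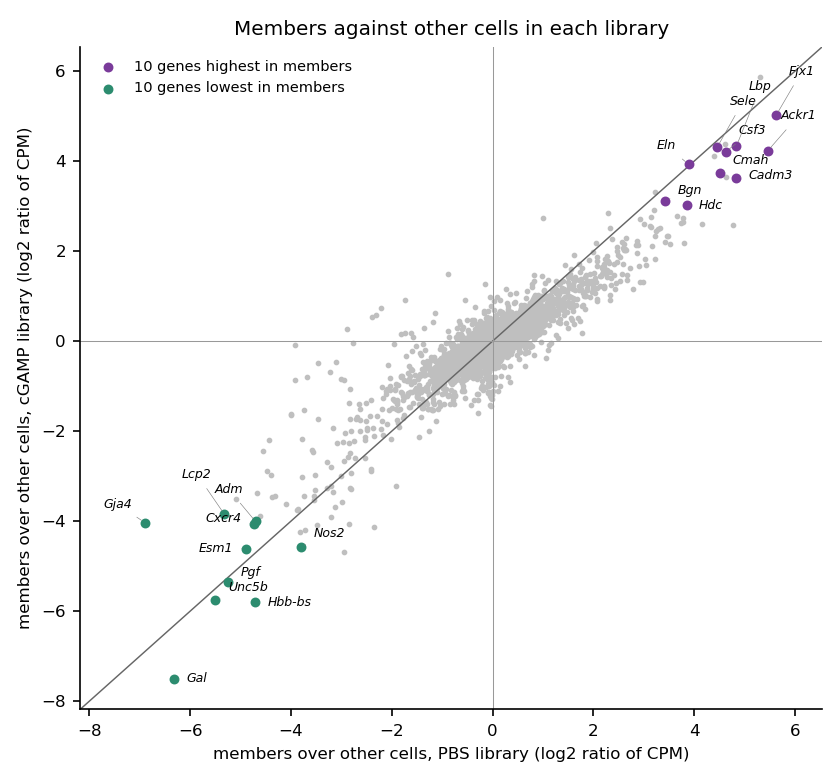
Log2 ratio of CPM, members over other ECs, in the PBS library (x axis) and the cGAMP library (y axis) for genes with at least 10 CPM in each library, rule genes left out; coloured points are the 10 genes that led in each direction and the diagonal marks equal ratios. The members' high genes lie at or slightly below the diagonal, and a group of genes to its upper left was low in PBS members only.

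The genes lowest in members were Gal, Unc5b, Pgf, Hbb-bs, Esm1, Cxcr4, Gja4, Adm, Lcp2 and Nos2. Gal, which codes for the peptide galanin, had 1.87 and 0.590 CPM in members against 149 and 107 CPM in the other ECs, where 5 cells held 27.8% and 57.0% of its UMIs and the median cell had none. Pgf, the gene of placental growth factor, had 6.70 and 4.79 CPM against 255 and 196 CPM. Esm1, the gene of endocan, had 12.0 and 10.8 CPM against 356 and 263 CPM. These 3 belong to the tip list, as do Unc5b, Cxcr4 and Adm. The gap junction gene Gja4 had no UMI in PBS members and 55.9 CPM in the other PBS ECs, which gives a log2 ratio of -6.90 or below (against a floor of 3 UMIs), and 5 cells held 96.3% of its 27 UMIs in cGAMP members. For Hbb-bs, a haemoglobin gene, 98.3% of the UMIs in the other PBS ECs lay in 5 cells.

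Leucocyte adhesion and interleukin 6 (IL-6) family genes were also set against the other ECs. Of 15 adhesion genes compared, 5 were 2-fold higher in both libraries and 2 were lower, with a median of 0.35. Icam1, a ligand of leucocyte integrins, stood at 552 and 427 CPM in members against 111 and 128 CPM, and Vcam1, a ligand of VLA-4, at 99.9 and 132 CPM against 41.3 and 59.96 CPM. Glycam1, a mucin-like ligand of L-selectin known from high endothelial venules, stood at 34.1 and 19.5 CPM against 1.25 and 3.24 CPM. Jam3 and Itgb3 were the 2 that were lower.

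In the IL-6 family list, all 13 genes compared were above 0 in both libraries and 5 were at least 2-fold higher, with a median of 0.89. Il6st, the gene of the shared receptor gp130, stood at 571 and 317 CPM in members against 78.1 and 67.5 CPM, and its log2 ratios were 2.87 (2.81 to 2.93) and 2.23 (2.17 to 2.30). Osmr, the gene of the oncostatin M receptor, stood at 81.9 and 47.6 CPM against 19.5 and 21.1 CPM. Il6 stood at 117 and 164 CPM against 26.6 and 70.3 CPM, and the feedback inhibitor gene Socs3 at 429 and 512 CPM against 150 and 255 CPM. Cebpb, a transcription factor gene of the acute phase response, was the fifth, at 120 and 218 CPM against 34.1 and 103 CPM. The kinase gene Jak1 (log2 ratios 0.65 and 0.71) and the transcription factor gene Stat3 (0.81 and 0.58) did not reach 2-fold. Lifr belongs to this family, and since it took part in the score it was left out of these counts.

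Other signalling lists gave smaller or mixed counts. Of 24 NF-kB and TNF response genes, 5 were 2-fold higher in both libraries and none lower, with a median of 0.51, and 3 of the 5 are the adhesion genes Icam1, Vcam1 and Sele. The other two of the 5 were Nfkbiz (1.41 and 1.16) and Ier3 (1.11 and 1.01). Of 13 Notch genes, 4 were 2-fold lower, among them the ligand gene Dll4 (32.3 and 71.5 CPM in members against 171 and 178 CPM), and 1, the glycosyltransferase gene Lfng, was higher. Of 16 genes of BMP and TGF-beta signalling, the ligand gene Bmp4 (56.0 and 55.8 CPM against 12.4 and 17.8 CPM) and the co-receptor gene Tgfbr3 were 2-fold higher. The ligand gene Bmp2 was the 1 that was lower, with 3.27 and 8.26 CPM in members against 83.1 and 85.6 CPM in the other ECs.

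The matrix of the members differed from that of the other ECs in kind. Of 22 matrix genes, 3 were 2-fold higher (Bgn, Mgp and Fbn1) and 4 were 2-fold lower. Fn1, the gene of fibronectin, had 17.3 and 4.26 CPM in members against 230 and 78.4 CPM, and the laminin gene Lama4 had 33.1 and 52.7 CPM against 212 and 169 CPM. The hypoxia and glycolysis list was low as a whole, with 11 of 12 genes below 0 in both libraries, none 2-fold higher, 2 at least 2-fold lower and a median of -0.73. Adm and Ankrd37 were the 2 that were lower.

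Sele was also checked for a promoter motif, because it is a textbook NF-kB target and led the members' genes. In the RefSeq promoters of GRCm38.p6 (250 bases before to 50 after a start), the NF-kB letters GGGA, 4 free bases and CC, on either strand and with matches allowed to overlap, occurred in 20.7% of 32851 promoters. Of the 6 genes among the 10 highest in members that had a promoter entry, 1 held it, and that was Sele. This share of 16.7% is not above the 29.5% of the genes in the files that had an entry. The stretch of its promoter at chr1:164048049-164048168, plus strand, is shown with the match in capitals.
Sele: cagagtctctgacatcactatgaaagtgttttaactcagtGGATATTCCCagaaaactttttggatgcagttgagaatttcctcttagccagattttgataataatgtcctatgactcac
The match starts 145 bases before the start of the gene. The other 5 genes with an entry held no such letters in this window.

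Markers of other cell types were measured in the same sums. Leucocyte markers (14 genes found) summed to 34.1 CPM in PBS and 69.0 CPM in cGAMP members, against 25.3 and 64.6 CPM in the other ECs. Red cell genes were at 4.52 and 4.33 CPM in members against 120 and 101 CPM. The 7 platelet genes summed to 46.5 and 56.6 CPM in members against 15.6 and 20.7 CPM, but 42.7 and 40.7 CPM of this was Itga2b, and Treml1 and Gp9 were at 0 in the members of both libraries, as were Ppbp in PBS and Gp5 in cGAMP members. Markers of pericytes and fibroblasts summed to 164 and 59.3 CPM against 41.6 and 29.95 CPM, of which the actin-binding protein gene Tagln made up 140 and 42.9 CPM, while Pdgfrb stood at 0.156 and 0.197 CPM and Pdgfra had no UMI in members. Lymphatic markers summed to 23.9 and 49.3 CPM against 65.1 and 94.5 CPM, and epithelial markers to 3.32 CPM or less in every group. The part of these transcripts in the members' ratios was not tested.

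Members overlapped other EC states to very unequal degrees. As many cells with the highest score of the tip list shared 1 cell with the members. They were 0.413% of PBS and 0% of cGAMP members, against 19.4% and 13.7% of the other ECs. Those with the highest score of S phase and mitosis shared 55, and were 11.6% and 8.01% of members against 17.1% and 13.4% of the other ECs. Those with the highest arterial score shared 73, or 12.6% of each group, and they were 22.7% of PBS and 5.34% of cGAMP members, against 16.0% and 14.3% of the other ECs. The matrix-rich list (Eln, Fbln2, Mgp and 6 others) shared 281, or 48.5% of each group, and the libraries differed here as well, because these cells were 78.1% of PBS members but 27.3% of cGAMP members. Among the other ECs the matrix-rich share was 10.8% and 5.18%. The members of the libraries were therefore not of the same mix.

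The 189 matrix-rich PBS members and the other 53 PBS members differed in both directions. Fbln2 stood at 717 and 242 CPM in these groups and Cxcl10 at 62.2 and 17.1 CPM, whereas Cxcl9 stood at 20.2 and 62.2 CPM and Angpt2 at 151 and 258 CPM. Ackr1 stood at 484 and 270 CPM in the PBS library, and at 1033 and 507 CPM in the 92 matrix-rich and the other 245 cGAMP members. Sele stood at 138 and 57.4 CPM in the PBS library and 150 and 61.7 CPM in the cGAMP library. In the other ECs, matrix-rich cells had 58.5 and 217 CPM of Ackr1 and the rest 6.26 and 26.3 CPM. For Ackr1, both kinds of member were therefore above both kinds of other EC of their library. This did not hold for Nr2f2 and Vwf in the cGAMP library. Members outside the matrix-rich cells had 129 and 171 CPM there, against 155 and 255 CPM in matrix-rich other ECs. Matrix-rich cGAMP members had 270 and 448 CPM. The median log2 ratio of the venous list over all other ECs of the library was 1.30 and 1.06 in the PBS library, for matrix-rich members and the rest, and 1.21 and 0.80 in the cGAMP library. Ubd was higher outside the matrix-rich members in both libraries, with 120 CPM against 14.9 CPM in the PBS and 1367 CPM against 237 CPM in the cGAMP library. Ehd3 was higher outside them in the cGAMP library (407 CPM against 261 CPM) but not in the PBS library (124 CPM against 156 CPM).

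The second comparison was that of cGAMP and PBS inside the members. Of the 8146 genes that reached 10 CPM in PBS or cGAMP members, 228 (2.8%) were at least 2-fold higher with cGAMP and 328 (4.03%) at least 2-fold lower. The median log2 ratio of these genes was -0.09, and median-of-ratios scaling moved it by 0.14 and gave 290 higher and 231 lower genes, so that the split of higher and lower depended on the scaling. In the other ECs, 114 of 7994 genes (1.43%) were higher and 71 (0.888%) lower. Of the higher genes, 94 were shared, which is 41.2% of the members' and 82.5% of the other ECs' higher genes.

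The genes that were highest with cGAMP in members were Ccl5, Cxcl9, C2, Zbp1, Ifi206, Ubd, Phf11b, Irf7, Apol9b and Ifit3, nearly all known as interferon-induced. Cxcl9, a chemokine that attracts T cells through CXCR3, went from 29.8 to 1651 CPM in members (log2 ratio 5.79, interval 5.59 to 6.01) and from 137 to 993 CPM in the other ECs (2.85, interval 2.82 to 2.88). After thinning, 6.78% of PBS and 75.9% of cGAMP members had a Cxcl9 UMI, against 10.0% and 59.7% of the other ECs. Zbp1, a sensor of Z-form nucleic acids, went from 3.43 to 165 CPM in members and from 25.5 to 136 CPM in the other ECs. Irf7, the gene of a transcription factor that amplifies interferon production, went from 28.2 to 716 CPM in members and from 86.8 to 631 CPM in the other ECs. In each of these the members had the lower level in the PBS library and the higher level in the cGAMP library.

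Ubd and Ccl5 were distributed differently among the cells. Ubd, which codes for the ubiquitin-like protein FAT10, went from 39.0 to 1151 CPM in members (4.88, interval 4.70 to 5.07) and from 19.4 to 173 CPM in the other ECs, so that after cGAMP it was higher in members by 2.73 (2.70 to 2.77) on the log2 scale. It declined along the ranking in the cGAMP library, with 1438, 1254 and 803 CPM in the 3 blocks of members and 481 CPM in the block after them. Ccl5, a T cell chemokine, went from 2.49 to 343 CPM in members and from 6.77 to 498 CPM in the other ECs. However, 5 cells held 47.3% of its UMIs in cGAMP members, and the median cGAMP member had 16.6 CPM. C2, a complement gene, had 3 UMIs in PBS members and 25.8 CPM in cGAMP members, with a log2 ratio of 5.78 (interval 4.23 to 8.07). Without the matrix-rich cells, an alternative chosen after the data were seen, the members' log2 ratio was 3.51 for Ubd and 4.84 in place of 7.10 for Ccl5. It was 4.39 in place of 5.59 for Zbp1 and 4.91 in place of 5.79 for Cxcl9. For C2 it was 3.79 or above. The PBS members left held at most 3 UMIs of C2, which were counted as the floor of 3, so this value cannot show a smaller ratio.

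The promoters of these genes were searched for the interferon-stimulated response element, with the letters GAAA, 2 free bases and GAAA, on either strand and overlaps allowed. It occurred in 3.44% of 32851 RefSeq promoters of GRCm38.p6. Of the 7 among the 10 leading genes that had an entry, 4 held it, and of the 32 genes with an entry in the interferon list 18 did, or 56.3%. The 4 are shown 5′ to 3′ on their own strand, with the matches in capitals.
Ifit3: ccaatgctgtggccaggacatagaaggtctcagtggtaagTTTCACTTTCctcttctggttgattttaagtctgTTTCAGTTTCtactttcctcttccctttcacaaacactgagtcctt
Ifi206: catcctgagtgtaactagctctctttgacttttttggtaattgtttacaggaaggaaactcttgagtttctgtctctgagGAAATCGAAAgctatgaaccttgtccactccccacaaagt
Phf11b: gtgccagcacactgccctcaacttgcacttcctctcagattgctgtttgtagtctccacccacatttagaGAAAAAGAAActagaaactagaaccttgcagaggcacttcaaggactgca
Apol9b: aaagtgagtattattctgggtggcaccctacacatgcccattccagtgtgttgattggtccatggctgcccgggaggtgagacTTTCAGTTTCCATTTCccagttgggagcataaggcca
They lie at chr19:34583333-34583452 (plus strand), chr1:173491319-173491438 (minus), chr14:59341331-59341450 (minus) and chr15:77728952-77729071 (plus). Ifit3 and Apol9b had 2 matches each, and in Apol9b these overlapped. Cxcl9 held none of them but had the NF-kB letters once, at chr5:92328130-92328249 on the minus strand. It was the only 1 of the 7 with these letters, and this share of 14.3% is not above the 29.5% of the genes in the files.
Cxcl9: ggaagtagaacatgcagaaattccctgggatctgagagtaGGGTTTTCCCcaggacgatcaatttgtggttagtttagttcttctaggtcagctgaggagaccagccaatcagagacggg

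The interferon list was higher with cGAMP in members, by a larger median ratio than in the other ECs. Of 41 genes, 34 were at least 2-fold higher in members, none was lower and the median log2 ratio was 1.95. In the other ECs 21 of 40 were at least 2-fold higher and the median was 1.12. Ifit2, which codes for an RNA-binding antiviral protein, gave the widest gap, since it went from 1.71 to 30.9 CPM in members (4.17, interval 3.32 to 5.18) but from 26.0 to 32.8 CPM in the other ECs (0.34, interval 0.24 to 0.43). Rsad2, the gene of viperin, went from 8.73 to 110 CPM in members and from 112 to 192 CPM in the other ECs. Isg15, a ubiquitin-like modifier gene, went from 77.8 to 889 CPM and from 259 to 790 CPM. Ifitm2 and Trim25 were at the low end of the list, with log2 ratios of 0.26 and 0.16 in members.

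The groups differed mainly in the PBS library. There 12 of 39 interferon genes were at least 2-fold lower in members than in the other ECs and 1 was higher, with a median of -0.47. In the cGAMP library none of 41 was 2-fold lower and 6 were higher, with a median of 0.39. After thinning, Ifit2 was found in 0.424% of PBS members and 5.38% of the other PBS ECs, but in 11.9% and 10.1% of the cGAMP groups. Along the ranking, Ifit3 stood at 7.79, 4.04 and 12.6 CPM in the 3 PBS blocks of members and at 56.8 CPM in the next block, whereas it stood at 235, 178 and 157 CPM and then 168 CPM in the cGAMP library. The 53 PBS members outside the matrix-rich cells had 12.3 CPM of Ifit3 and 1.37 CPM of Ifit2, and the 2029 other PBS ECs outside them had 42.0 and 26.5 CPM. The median of the interferon list over the other PBS ECs was -0.57 in matrix-rich members and -0.03 in the rest, with 13 and 9 genes at least 2-fold lower.

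**Figure D4:**
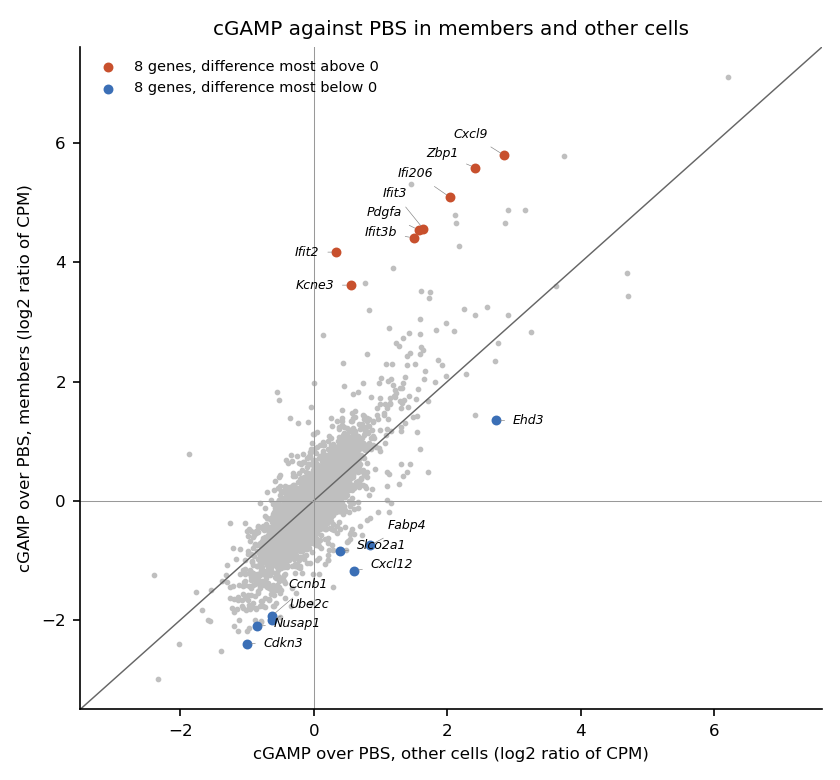
Log2 ratio of CPM, cGAMP over PBS, in the other ECs (x axis) and the members (y axis) for genes with at least 10 CPM in both groups; coloured are the 8 genes with the largest difference between the groups in each direction and the diagonal marks equal ratios. Ifit2 (4.17 against 0.34) and Kcne3 (3.62 against 0.55) lie farthest above the diagonal, and Fabp4, Slco2a1 and Cxcl12 are below 0 in members and above 0 in the other ECs.

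Antigen presentation genes were higher with cGAMP in both groups. Of 20 MHC class I genes, 15 were at least 2-fold higher in members with a median of 1.65, and 12 in the other ECs with a median of 1.21. H2-K1, which codes for a class I heavy chain, went from 1202 to 3909 CPM in members and from 1134 to 3284 CPM in the other ECs. H2 genes are similar in sequence, so that the division of reads among them is uncertain. Class II genes were low, and none of the 8 reached 10 CPM in either group of the PBS library. The 4 compared in members therefore passed the minimum only through cGAMP members. All 4 were at least 2-fold higher with cGAMP, but the minimum had fixed their direction. Cd74, the invariant chain gene, went from 9.82 to 81.2 CPM in members and from 6.76 to 20.3 CPM in the other ECs, and H2-Ab1 from 1.40 to 17.1 CPM and from 4.12 to 5.05 CPM. Class II genes are also those of macrophages and dendritic cells, and in the same sums the leucocyte gene Ptprc stood at 0.156 and 0.852 CPM in PBS and cGAMP members and Lyz2 at 7.48 and 16.9 CPM. The part of such cells in the class II values was not tested.

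Complement genes had the highest median of the lists in members, at 3.21, with 6 of 8 at least 2-fold higher, and in the other ECs 3 of 4 were 2-fold higher with a median of 3.69. Only 3 complement genes reached 10 CPM in members or other ECs of the PBS library. The rest of the 8 passed the minimum only through cGAMP members and could only be higher. The count and the median in members therefore follow in part from the minimum. Serping1, the gene of the C1 inhibitor, went from 28.5 to 402 CPM in members and from 4.77 to 123 CPM in the other ECs. Cfb, the gene of factor B, went from 8.26 to 100 CPM and from 4.07 to 50.5 CPM. C1s1, a protease gene of the classical pathway, went from 2.18 to 18.9 CPM in members and from 0.339 to 1.70 CPM in the other ECs, and thus was higher in members than in other ECs in both libraries. Cd55 and Cd59a, which code for surface inhibitors of complement, were also higher in members in both libraries, but with cGAMP they had log2 ratios of -0.47 and -0.54.

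Of the 13 chemokine and growth factor genes, 7 were at least 2-fold higher with cGAMP in members and 1 was lower. Cxcl10, a ligand of the same receptor as Cxcl9, went from 51.9 to 480 CPM in members and from 95.7 to 170 CPM in the other ECs. The neutrophil chemokine gene Cxcl2 went from 6.39 to 35.2 CPM in members and from 16.5 to 28.6 CPM. Ccl2, which attracts monocytes, went from 43.7 to 94.5 CPM in members and stayed below its level in the other ECs (213 and 298 CPM). Cxcl12, which retains CXCR4+ cells, was the 1 that was lower. It went from 21.7 to 9.64 CPM in members (-1.17, interval -1.51 to -0.82) and from 111 to 169 CPM in the other ECs (0.60, interval 0.56 to 0.65). In PBS and cGAMP members 5 cells held 32.4% and 58.5% of its UMIs, and the median cell had none. Cxcl12 belongs to the arterial list, whose highest-scoring cells were 22.7% of PBS and 5.34% of cGAMP members. The part of this mix in its ratio was not tested.

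None of 15 adhesion genes, among them the rule gene Selp, reached 2-fold in either direction with cGAMP in members. The log2 ratio was above 0 in 7 of them and below 0 in 8, with a median of -0.15. Selp had a log2 ratio of -0.20 (-0.24 to -0.16), Sele of -0.60 (-0.73 to -0.47) and Icam1 of -0.37 (-0.43 to -0.31), while Ackr1 was at 0.48 (0.42 to 0.54) and Vcam1 at 0.40. In the other ECs Ackr1 had 1.71 (1.59 to 1.83). The lower sums of Selp and Sele with cGAMP were not seen within either kind of member. Selp went from 1352 (interval 1320 to 1385) to 1519 CPM (1475 to 1565) in matrix-rich members. In the rest it stood at 990 (939 to 1042) and 1004 CPM (986 to 1022). Sele stood at 138 (128 to 148) and 150 CPM (137 to 165) in matrix-rich members. In the rest Sele stood at 57.4 (45.8 to 71.1) and 61.7 CPM (57.3 to 66.2). Apart from Selp in matrix-rich members, these intervals overlapped. Icam1 went from 589 to 710 CPM in matrix-rich members but from 426 to 359 CPM in the rest, and Ackr1 from 484 to 1033 CPM and from 270 to 507 CPM. The sums join these kinds in unequal shares, since matrix-rich cells, which had the higher level of all 4 genes in both libraries, were 78.1% of PBS and 27.3% of cGAMP members. IL-6 family genes, here with the rule gene Lifr, were similar in this respect, with 0 of 14 past 2-fold and Il6st at -0.85 (-0.91 to -0.78). Il6st went from 611 to 578 CPM in matrix-rich members and from 435 to 256 CPM in the rest. The part of the scaling shift of 0.14 in these ratios was not tested.

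The haemostasis and stabilising genes moved in different directions. Plaur, the urokinase receptor gene, went from 60.3 to 211 CPM in members, and Angpt2, an antagonist ligand of TIE2 stored in Weibel-Palade bodies, from 176 to 460 CPM. Both were at least 2-fold higher with cGAMP in members. Plaur went from 59.99 to 130 CPM in matrix-rich members and from 61.5 to 231 CPM in the rest. Angpt2 went from 151 to 124 CPM in matrix-rich members and from 258 to 540 CPM in the rest, so that it was lower in the matrix-rich members and higher in the rest, whose share was larger in the cGAMP library. Vwf, the gene of von Willebrand factor, went from 613 to 224 CPM in members (-1.45, interval -1.52 to -1.38) and from 217 to 90.6 CPM in the other ECs (-1.26, interval -1.31 to -1.21), and it was lower in both kinds of member (from 660 to 448 CPM in matrix-rich members and from 453 to 171 CPM in the rest). Of 22 apoptosis genes, none reached 2-fold in members, with a median of 0.13, and the same held for 0 of 23 in the other ECs, with a median of 0.11.

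Genes that differed more upwards in members than in the other ECs were Ifit2, Zbp1, Kcne3, Ifi206, Pdgfa, Cxcl9, Ifit3 and Ifit3b. Kcne3, which codes for a potassium channel subunit, went from 4.52 to 55.5 CPM in members (3.62, interval 3.08 to 4.20) and from 68.7 to 101 CPM in the other ECs (0.55, interval 0.50 to 0.61). Pdgfa, a growth factor gene for mesenchymal cells, went from 1.56 to 36.3 CPM in members and from 17.1 to 50.7 CPM. Kcne3 and Pdgfa had thus been much lower in PBS members than in the other PBS ECs, as had the interferon genes.

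Genes that differed more downwards in members were Cxcl12, Fabp4, Cdkn3, Ehd3, Ube2c, Ccnb1, Nusap1 and Slco2a1. Fabp4, the gene of a fatty acid carrier, went from 4484 to 2679 CPM in members and from 1312 to 2366 CPM in the other ECs, so that the groups came close to each other with cGAMP. Slco2a1, the prostaglandin transporter gene, went from 582 to 323 CPM in members and from 77.4 to 102 CPM. Ehd3 was higher with cGAMP in both groups, and as a rule gene its level in members is bounded by the choice of cells.

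Cdkn3, Ube2c, Ccnb1 and Nusap1 are genes of mitosis, as are Cenpf and Cenpa among the genes lowest with cGAMP in members. In the list of S phase and mitosis, 9 of 20 genes were at least 2-fold lower with cGAMP in members and none higher, with a median of -0.89, and in the other ECs 1 was lower with a median of -0.43. Mki67 went from 115 to 33.9 CPM in members and from 123 to 58.3 CPM in the other ECs. The DNA replication genes Pcna, at 0.45, and Mcm5, at 0.22, were above 0 in members. In the PBS library Mki67 was at 26.5 CPM in the highest-scoring 81 members and at 145 and 150 CPM in the 81 and 80 members with lower scores. When as many cells as there are members, those with the highest cell cycle score, were left out, the difference between members and other ECs had the opposite sign for Cdkn3 (0.54), Ube2c (1.18), Ccnb1 (0.58) and Nusap1 (0.25).

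The genes lowest with cGAMP in members were, besides those of mitosis (and the noncoding Lockd), Ptn, Cmah, Chp2, Adamts18, Epha4 and the unnamed Gm47283. Cmah, which codes for the enzyme that makes glycolylneuraminic acid, went from 151 to 27.1 CPM in members (-2.48, interval -2.65 to -2.31) and was nonetheless higher in members than in other ECs in both libraries. Chp2, a calcineurin-like protein gene, went from 53.5 to 9.90 CPM, and the metalloproteinase gene Adamts18 from 29.0 to 6.36 CPM. For Ptn, the gene of pleiotrophin, 5 cells held 71.8% of the UMIs in PBS members. The matrix-rich list was lower with cGAMP as well, with 4 of 9 genes at least 2-fold lower and a median of -0.93, among them Eln (from 89.6 to 20.9 CPM) and Fbln2 (from 609 to 190 CPM). These sums again join a mix of 78.1% and 27.3% matrix-rich members. Within the matrix-rich members Eln went from 113 to 70.4 CPM and Fbln2 from 717 to 482 CPM, and in the rest Eln went from 11.6 to 9.17 CPM and Fbln2 from 242 to 120 CPM. Cmah stood at 174 and 82.7 CPM in matrix-rich PBS and cGAMP members and at 72.4 and 13.9 CPM in the rest, so that it was lower with cGAMP in both kinds of member.

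**Figure D5:**
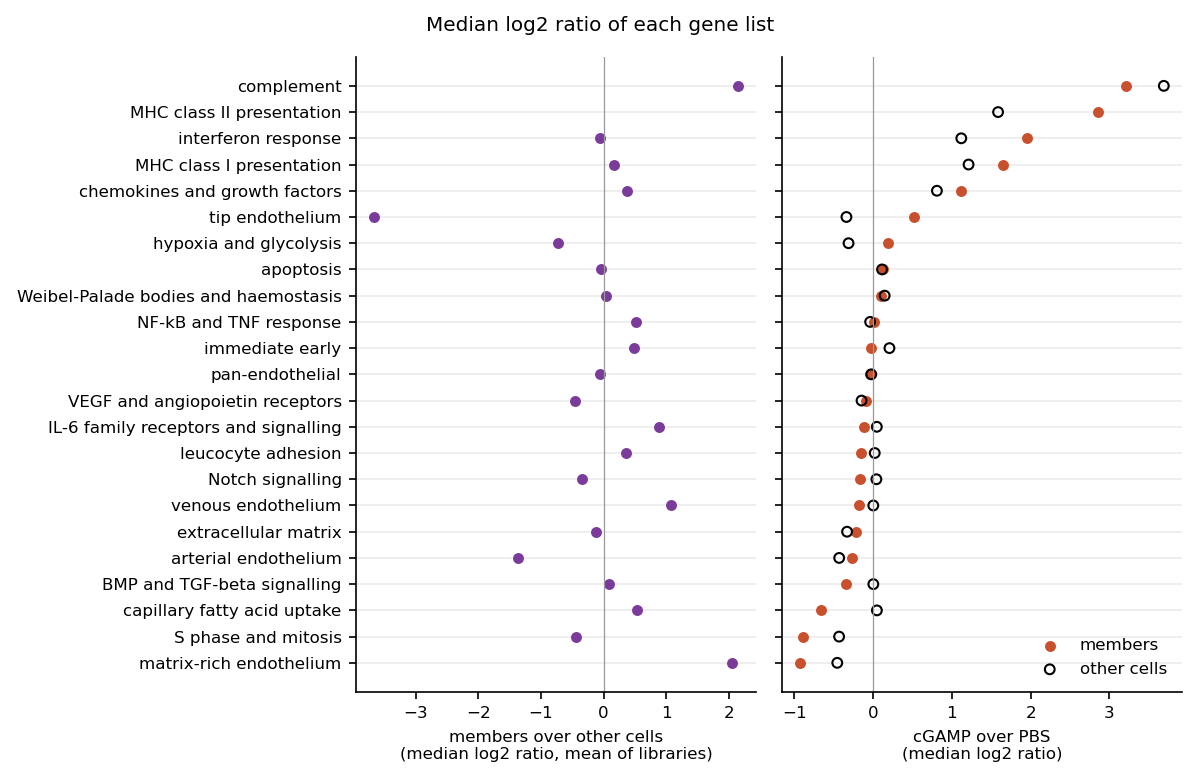
Median log2 ratio of each gene list, on the left members over other ECs (mean of both libraries) and on the right cGAMP over PBS in members (filled) and in the other ECs (open); class II genes have no value on the left because none had 10 CPM in both libraries. Tip genes are at -3.66 on the left, and on the right interferon genes are at 1.95 in members and 1.12 in the other ECs.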

How the data were processed

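ECs of 1 PBS-treated and 1 cGAMP-treated LLC tumour were profiled by droplet-based scRNA-seq. The authors aligned reads to mm10 with Cell Ranger 3.0.0, and, with Seurat 3.1.1, removed cells with under 500 genes or over 10% mitochondrial UMIs, genes in under 3 cells and clusters without Pecam1. The labels and the methods name different kit versions. The values the authors deposited are the natural log of 1 plus UMIs per 10000. The design had assumed raw counts, so UMI counts were recovered from the deposited values by undoing the logarithm and dividing by each cell's smallest step. Of 13483883 and 7904326 values, 100% came within 0.01 of a whole number, for 17139 genes, 2517 and 1340 cells. No doublets were removed.

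The members were the 579 cells with the highest score. UMIs were summed per library and group, as CPM. Genes with at least 10 CPM in either group of a comparison were compared. Rule genes were left out of the counts over all genes and of the lists for members against other ECs. They were kept in the lists and rankings for cGAMP against PBS. A gene was called at 2-fold, with no test. Named genes were, with at least 20 CPM, the 10 with the largest ratio in each direction and the 8 with the largest difference between members and other ECs. Intervals are exact (Poisson, conditional binomial or Clopper-Pearson). Counts under 3 UMIs were set to a floor of 3 UMIs for ratios, which are then bounds. Cells were thinned to 5000 UMIs for shares, which left out 6 and 1 members. The members and gene lists were chosen with earlier results of these data known, and the matrix-rich division of members after their values were seen. Alternatives were the score, the cells, the scaling and the minimum level. Scripts were tested on simulated data. Python 3.11.15, numpy 2.4.6, scipy 1.17.1 and pandas 2.3.3 were used. Coordinates are of GRCm38 from GENCODE vM21. A result of 1 gene is not reported here.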

Additional observations from a re-analysis of the deposited data

Results flagged for a closer look

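Opposite signs of the log2 ratio of cGAMP over PBS in members and in the other ECs were flagged for 5 of the named genes. None of these differences was tested, because there is 1 library per condition. Lbp (-0.13 in members and 0.38 in the other ECs) and Cadm3 (-0.13 and 1.08) had opposite signs as well. Their intervals in members, -0.26 to 0.006 and -0.38 to 0.12, held 0, and they are not among the 5. Cxcl12 was at -1.17 in members and 0.60 in the other ECs, and 5 cells held 58.5% of its UMIs in cGAMP members. Fabp4 was at -0.74 and 0.85, and Slco2a1 at -0.85 and 0.39. Selp, at -0.20 and 0.18, and Lifr, at -0.18 and 0.96, took part in the score that chose the members. In matrix-rich members Selp was higher with cGAMP, from 1352 to 1519 CPM. In the rest Selp stood at 990 (939 to 1042) and 1004 CPM (986 to 1022), with overlapping intervals. The matrix-rich share was 78.1% of PBS and 27.3% of cGAMP members. Lifr went from 92.9 to 102 CPM in matrix-rich members and from 97.7 to 78.5 CPM in the rest, with overlapping intervals in each.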

How the results depend on the processing

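No paired analysis was possible because there is 1 library per group and no test, and no library could be left out. The excess of members in the cGAMP library, 15.5 percentage points, was 9.71 for the top 10% of cells, 12.2 with the score from thinned cells, 10.7 without Ehd3, 21.1 for cells with at least 4 of the 6 genes and 18.5 with a mitochondrial limit of 5%. Taking the top 15% of each library gives no value, since the shares are then equal. With a minimum of 3 UMIs in place of 10 CPM, 1414 genes were higher and 424 lower in members of both libraries, and 502 were higher and 1718 lower with cGAMP. The latter count was 203 with a minimum of 20 CPM and 160 with 5 CPM added to both sides. In cells thinned before summing, 370 genes were higher and 548 lower with cGAMP. The difference in ratio between members and other ECs reversed without cycling cells for Cdkn3 (0.54), Ube2c (1.18), Ccnb1 (0.58) and Nusap1 (0.25), and in thinned cells for Cdkn3 (0.23). The cause was not tested, except that fewer or more genes are compared under another minimum. Of the values that answer a comparison, 148 recomputed ones kept their direction within the limits set and 13 moved, as did 1080 and 403 of those of named genes. Leaving out matrix-rich cells, an alternative added after seeing the data, left 298 members, with 279 genes higher and 439 lower with cGAMP and an interferon median of 1.64.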
